A study of Homo sapiens with 74 samples.

Results

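The zinc-finger protein genes of human chromosome 19 were examined as targets: protein-coding genes of chromosome 19 whose symbol is ZNF followed by a number, without the 3 that were themselves transfected. GENCODE 44 lists 246 such genes among 1476 protein-coding genes of the chromosome, and 1226 others that were not transfected served as the comparison. A further comparison set held 261 ZNF genes on the other autosomes and the X chromosome. DNA associations came from Cut&Run, in which an antibody guides a nuclease to a tagged protein in permeabilised cells and the released fragments are sequenced. HEK293T cells, a human embryonic kidney line, were transfected with a plasmid that drives one zinc-finger protein (ZFP) with a C-terminal V5 tag from the EF1-alpha promoter and were taken 48 h later. Un-transfected cells given the same V5 antibody, the mock IP, were the control against which the peaks were called. The 36 ZFPs were APEX2, BRCA1, CISD1, CNBP, CNOT4, CPSF4, CPSF4L, CTCF, G2E3, GIN1, GTF3C4, LIN28B, MAZ, MBNL1, NANOS2, PHF7, RBM5, RNF113A, RNF14, SALL4, SNRPC, TEX13A, TRIM55, U2AF1, WBP4, ZC3H3, ZFP36L1, ZMAT3, ZMAT5, ZNF2, ZNF22, ZNF317, ZNF574, ZNF593, ZNF706 and ZNF800, each with 2 biological replicates, giving 72 peak lists. The proteins were overexpressed in 1 cell line, so a peak need not show where the cell's own protein sits. Per the paper, a Cut&Run site can be a direct or an indirect association of the protein with DNA.

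The lists held 15 to 8702 peaks (median 631), 92122 in all and 5508 on chromosome 19. As a check of the labels, 66 of the 72 lists had an exon peak at the gene that was transfected, with a median highest fold of 2061, as the plasmid itself would give. MBNL1 replicate 1, TRIM55 replicate 2 and both replicates of U2AF1 and ZMAT5 had none. ZC3H3 replicate 2 had one with a fold of 3.99 and CPSF4L replicate 2 one of 97.5. In many lists the highest exon peak lay at EEF1A1, the EF1-alpha gene, and not at the transfected gene. In CISD1 replicate 1, for example, the fold was 7903 at EEF1A1 and 1159 at CISD1. ZNF706 replicate 1 was the only list where it lay at another gene, DEGS1 (690), above that at ZNF706 (404). Low values also stood at MAZ (129 and 178) and CPSF4L replicate 1 (237), which were kept. Without U2AF1, MBNL1, TRIM55, ZMAT5, ZNF706 and ZC3H3, the differences and counts at the ZNF genes given below were -2.48 percentage points and 87 genes for promoters and -0.985 percentage points and 11 genes for exons.

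Zinc fingers of the C2H2 kind are short folds around a zinc ion, and a string of them reads a stretch of DNA. Chromosome 19 carries the largest collection of these genes in the human genome, in tandem clusters that arose by repeated duplication. Many of their products join the fingers to a KRAB domain, which recruits TRIM28 and, through it, SETDB1 and HP1 proteins to silence transposable elements. The 3' coding exons of many of these genes, which encode the fingers, are known to carry the silencing mark H3K9me3 and to be bound by ZNF274. A promoter peak was a peak with an edge within 1 kb of the start of any protein-coding transcript of the gene. An exon peak overlapped an exon of the gene and lay more than 1 kb from every such start of any gene.

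The promoters of 3 genes with peaks in many lists and of 2 well-known cluster genes without any are shown for comparison of their CG dinucleotides. Each run holds the 200 bases upstream of the start in RefSeq (GRCh38.p14), 5' to 3' on the strand of the gene, with CG dinucleotides in capitals. ZNF428, ZNF787 and ZNF653 had peaks in 15, 15 and 11 lists, and ZNF91 and ZNF93 in none.
ZNF428 (chr19:43619630-43619829, minus strand): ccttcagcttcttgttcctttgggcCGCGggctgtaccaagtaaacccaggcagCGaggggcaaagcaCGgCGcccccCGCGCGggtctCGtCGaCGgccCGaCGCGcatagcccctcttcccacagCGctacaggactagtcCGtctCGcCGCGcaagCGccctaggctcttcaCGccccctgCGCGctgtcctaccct
ZNF787 (chr19:56121296-56121495, minus strand): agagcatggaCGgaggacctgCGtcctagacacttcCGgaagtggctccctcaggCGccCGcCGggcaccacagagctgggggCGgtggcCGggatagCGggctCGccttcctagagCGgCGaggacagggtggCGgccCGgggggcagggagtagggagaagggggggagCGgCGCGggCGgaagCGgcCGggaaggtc
ZNF653 (chr19:11505840-11506039, minus strand): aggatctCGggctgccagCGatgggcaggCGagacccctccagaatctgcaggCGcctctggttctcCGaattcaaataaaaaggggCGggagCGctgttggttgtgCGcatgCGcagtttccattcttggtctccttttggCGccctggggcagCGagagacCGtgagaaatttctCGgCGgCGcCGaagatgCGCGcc
ZNF91 (chr19:23395472-23395671, minus strand): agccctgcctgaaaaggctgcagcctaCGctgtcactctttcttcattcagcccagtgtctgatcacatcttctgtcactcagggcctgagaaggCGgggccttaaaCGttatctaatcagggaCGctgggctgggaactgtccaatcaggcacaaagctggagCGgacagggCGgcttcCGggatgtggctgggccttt
ZNF93 (chr19:19900746-19900945, plus strand): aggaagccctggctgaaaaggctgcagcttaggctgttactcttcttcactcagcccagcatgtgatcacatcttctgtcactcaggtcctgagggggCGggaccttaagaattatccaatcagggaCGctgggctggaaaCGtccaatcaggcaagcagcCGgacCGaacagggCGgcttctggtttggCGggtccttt
The 3 promoters with peaks held 23, 20 and 18 CG dinucleotides in these bases, and the other two held 7 each. ZNF568, another known gene with no peak, held 15, close to ZNF653. ZNF91 and ZNF93 were also poorer in CG dinucleotides than most ZNF promoters without a peak. In the 300 bases around the start they held 11 and 10, against a median of 19 in the 136 ZNF promoters without a promoter peak. The median was 22 in the 60 with 1 to 4 lists and 24.5 in the 20 with 5 or more lists. The ZNF787 stretch contains CCGGAAG, the core that ETS factors recognise, the ZNF91 stretch holds it on the other strand, and the ZNF653 stretch contains GCATGCGC, the core of the NRF1 element. ZNF428, ZNF787 and ZNF653 were chosen by their peak counts, and ZNF91 and ZNF93 as well-known genes without peaks. The contrast between them is therefore a description.

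Peaks were less common at the promoters of the chromosome 19 ZNF genes than at other promoters of the chromosome. Of the 246 genes, 87 (35.4%) had a promoter peak in at least 1 list, against 51.3% of all 1472 chromosome 19 genes. A peak in both replicates of at least 1 ZFP was found at 15 of them (6.10%), against 18.8% of all chromosome 19 genes. Peaks in at least 5 lists were found at 21 (8.54%), against a background of 19.3%. Of the ZNF genes on other chromosomes, 58.6% had a promoter peak in at least 1 list and 17.6% in both replicates of at least 1 ZFP. Averaged over the 36 ZFPs, 1.57% of the chromosome 19 ZNF genes had a promoter peak in a list, against 3.69% of other chromosome 19 genes. The difference, -2.12 percentage points (SD 3.32, n = 36 ZFPs), had an adjusted p of 1.33e-05 by a two-sided sign-flip permutation test over ZFPs, corrected over 4 tests, and 34 of 36 ZFPs were on the lower side. That count includes 13 ZFPs that marked no chromosome 19 ZNF promoter. Among them, RBM5, SALL4 and ZNF706 were lower through 1 other gene in 1 list, so the sign says little for ZFPs with few calls. Against ZNF genes elsewhere, at 3.38%, the difference was -1.81 percentage points (SD 2.89, n = 36), with an adjusted p of 1.33e-05 by the same permutation test and 23 ZFPs lower, 7 equal and 6 higher. The ZFPs shared mock IP controls within batches, so they are not fully independent units of this test. They were also scored on the same genes in the same cell line. The 275 distinct peaks behind the calls at the chromosome 19 ZNF promoters merged into 100 regions. The p-values of this test therefore describe the spread over ZFPs and not over genes.

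**Figure D1:**
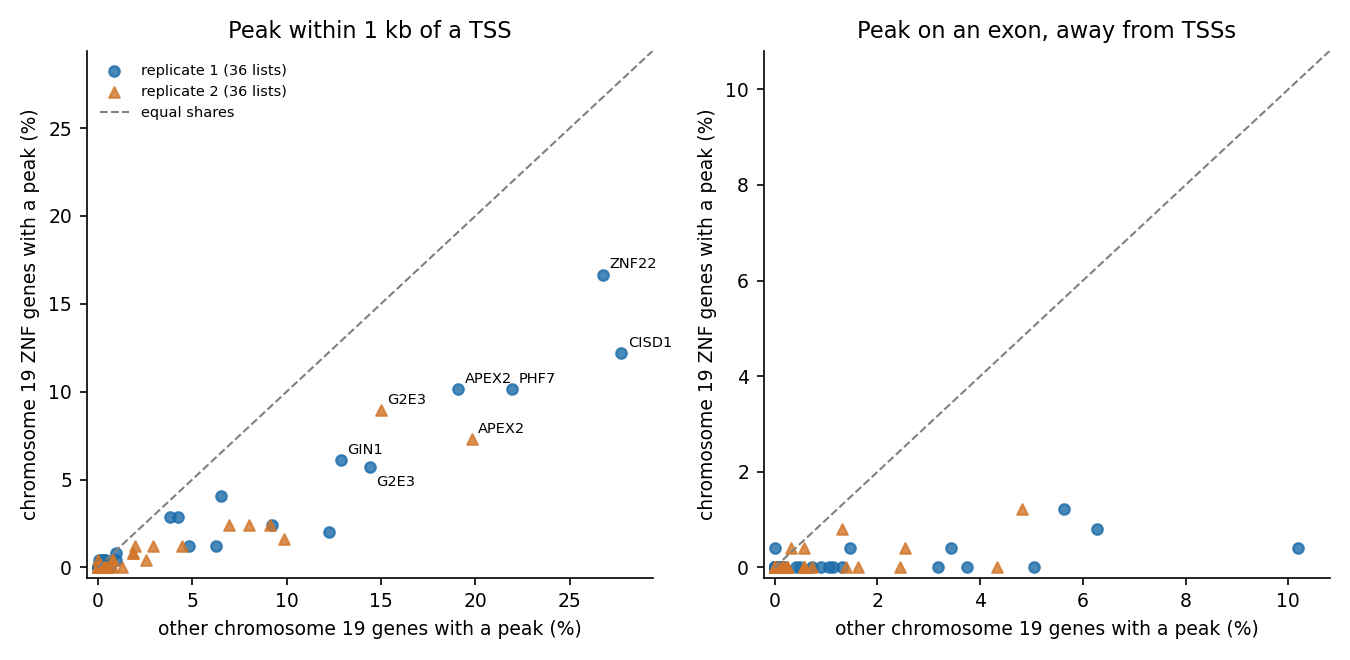
Share of chromosome 19 ZNF genes with a peak (vertical axis, percent of 246) against the share of other chromosome 19 genes (horizontal axis, percent of 1226) in each of the 72 lists, for promoters on the left and exons on the right. The dashed line marks equal shares. ZNF22 replicate 1 sits highest, at 16.7% of the ZNF genes and 26.8% of the others, and every list with more than 5% of the ZNF genes lies below the line.

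The peaks at these promoters came mostly from a few ZFPs. ZNF22, a small C2H2 protein, APEX2, a DNA repair endonuclease, CISD1, an iron-sulfur protein of the outer mitochondrial membrane, the ubiquitin ligases G2E3 and PHF7, and GIN1, a protein derived from a retroelement integrase, made 74.8% of the 278 calls, counting each gene once per list. The other calls were spread over 17 further ZFPs, and 13 ZFPs had none. ZNF22 replicate 1 marked 41 of the ZNF promoters (16.7%), where 25.1% of all chromosome 19 genes were marked. CISD1 replicate 1 marked 30 (12.2%) against a background of 25.1%, and replicate 2 marked 6 (2.44%) against 7.07%. APEX2 marked 25 and 18 in its replicates, 10.2% and 7.32%, against 17.6% and 17.7% of all chromosome 19 genes. PHF7 replicate 1 marked 25 (10.2%) against 20%. G2E3 marked 14 and 22, 5.69% and 8.94%, against 13% and 14%. GIN1 marked 15 and 6, 6.10% and 2.44%, against 11.8% and 6.18%. In all 10 of these lists the ZNF share was below the background, at 9.15% ± 10.6 against 18.3% ± 11.9 of other genes in ZNF22 and 8.74% ± 2.01 against 19.5% ± 0.519 in APEX2 (mean ± SD, n = 2 replicates).

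The remaining lists with at least 5 marked ZNF promoters showed the same order. CTCF, the insulator protein, marked 5 and 6 (2.03% and 2.44%) against 10.5% and 8.02% of all chromosome 19 genes. Its ratio of ZNF to other genes, 0.209, was the lowest among the 12 ZFPs with at least 5 such calls. CPSF4 replicate 1, a cleavage and polyadenylation factor, marked 6 (2.44%) against 8.08%. TEX13A replicate 1 marked 10 (4.07%) against 6.11%. SNRPC replicate 1, from a U1 snRNP protein, marked 7 (2.85%) against 4.01%. ZC3H3 replicate 1 marked 7 (2.85%) against 3.67%. CNBP and ZNF574 were the only ZFPs with a higher mean share at the ZNF genes, each from a single marked gene in 1 replicate.

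Replicates shared few of these genes. A ZFP and a gene were paired by a peak in 1 or both replicates 250 times, and 28 pairs (11.2%) came from both. For other chromosome 19 genes the same share was 21.1%. G2E3 had 9 genes in common, which were 64.3% of replicate 1 and 40.9% of replicate 2. APEX2 had 7, or 28.0% and 38.9%. ZNF22 had 3, or 7.32% of the 41 genes of replicate 1 and 75.0% of the 4 genes of replicate 2. The lists of ZNF22 held 6125 and 1836 peaks, and the part of depth in this gap was not tested. CISD1 and GIN1 had 3 genes each in common, PHF7 had 2 and CPSF4 had 1.

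ZNF524 had the most promoter peaks when a peak could count for every gene within 1 kb. ZNF524, a protein that binds telomeric repeats, had a promoter peak in 16 lists from 10 ZFPs and in both replicates of 6 of them, namely APEX2, CISD1, G2E3, GIN1, PHF7 and ZNF22. Its highest fold over the mock IP in each list ran from 3.50 in G2E3 replicate 1 through a median of 6.76 to 10.9 in PHF7 replicate 1. The pair of ZNF22 values, 7.28 and 7.56, was the closest between replicates for this gene, and PHF7 gave 10.9 and 4.47. Every one of its 19 gene and peak pairs was shared with FIZ1, a zinc-finger gene that starts within reach of the same peaks. The peaks therefore cannot be assigned to ZNF524 rather than FIZ1. With each peak given to its nearest gene alone, ZNF524 kept 7 lists, both replicates of 1 ZFP (APEX2) and a highest fold of 8.31, and ZNF428 and ZNF787 stood first with 15 lists each. The G2E3 peaks of the 2 replicates did not overlap and were 647 bases apart.

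ZNF428 and ZNF787 followed with 15 lists from 12 ZFPs each and both replicates of 3 ZFPs each, and no other protein-coding gene started within 1 kb of their peaks. ZNF428 ran from 4.21 in CTCF replicate 1 through a median of 5.31 to 8.54 in ZMAT3 replicate 1. Its APEX2 values were 5.56 and 8.19, its CISD1 values 4.77 and 6.45 and its ZNF22 values 6.14 and 5.25. ZNF787 ran from 4.10 through a median of 6.57 to 9.54, both extremes being the APEX2 replicates. The GIN1 values at ZNF787 were 5.68 and 4.53, and the CPSF4 values were 5.41 and 6.58. ZNF787 was the single ZNF gene of the chromosome marked by ZNF2, with a fold of 4.79, or by ZNF574, with a fold of 6.95, in replicate 1 of each. No list of ZNF317 marked any of these promoters.

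The other genes with both replicates of at least 1 ZFP had folds of similar size, among peaks that had all passed the caller's threshold. Identical folds recurred within a list, such as 5.30 in CISD1 replicate 1 at ZNF471, ZNF565, ZNF599 and ZNF846. Likeness of folds therefore says little. ZNF653, a corepressor of the nuclear receptor SF-1, had 11 lists with folds of 4.16 to 6.81 and a median of 5.58, and both replicates of G2E3 (6.81 and 4.16) and APEX2 (6.01 and 5.44). ZNF837 had 9 lists with folds of 4.78 to 6.36, and the G2E3 values of 5.81 and 5.86 were close. ZNF564 had 8 lists (3.45 to 6.10) and ZNF444, a SCAN domain protein, had 8 lists (4.15 to 7.21). ZNF274, which recruits SETDB1 to the 3' exons of other ZNF genes, had 7 lists with folds of 3.82 to 7.14, and its APEX2 replicates gave 3.96 and 5.72. ZNF846, ZNF324 and ZNF57 had 7 lists each, and both replicates of G2E3 marked all of them. At ZNF324 and ZNF846 those G2E3 peaks lay at different start sites, 4146 and 6196 bases apart, so neither gene had overlapping peaks in both replicates of any ZFP. The other 13 genes did. ZNF628 had 5 lists, with 3.93 and 5.64 in GIN1 and 6.47 and 4.71 in ZNF22. ZNF526, ZNF784 and ZNF823 were each marked in both replicates of 1 ZFP (G2E3, CISD1 and APEX2), and all 6 peaks at ZNF526 were shared with DEDD2. All 8 peaks at ZNF564 also lay at the start of an overlapping protein-coding gene that the annotation leaves unnamed.

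**Figure D2:**
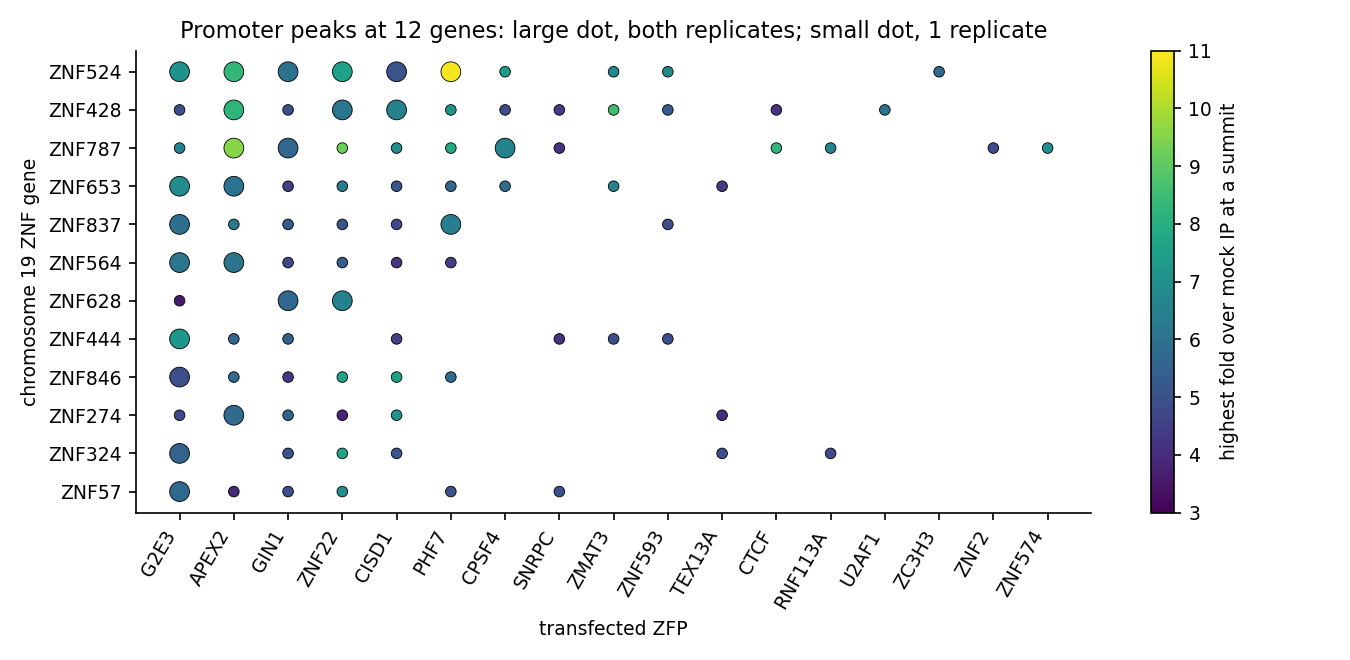
Promoter peaks at the 12 chromosome 19 ZNF genes with the most replicated peaks (rows) in each ZFP that marked any of them (columns). A large dot means both replicates and a small dot 1 replicate, and the colour gives the highest fold over the mock IP at a summit. G2E3 marked all 12, with both replicates at 8, and ZNF524 has the brightest dot, 10.9 in PHF7. The G2E3 peaks of the replicates do not overlap at ZNF524, ZNF324 and ZNF846.

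Of the 7 genes chosen for their known roles, ZNF274 (above), ZNF331 and ZNF536 were marked, against 35.4% of all the ZNF genes, and 4 were not. ZNF91 and ZNF93, which silence SVA and LINE-1 retrotransposons, had no promoter or exon peak in any of the 72 lists. ZNF568, known in mice for silencing a placental Igf2 transcript, and ZNF224, a KRAB repressor, had none either. ZNF331, an imprinted gene, had 1 promoter peak, in CISD1 replicate 2 with a fold of 4.30. ZNF536, a repressor of neuronal differentiation, had 2, in G2E3 replicate 1 (4.51) and PHF7 replicate 1 (5.02). A missing peak says only that none passed the peak caller's threshold in these lists, and 156 of the 246 genes had neither kind of peak.

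Promoter peaks were by definition within 1 kb of a start site, so their closeness to starts follows in part from that rule. The ZNF genes had a median of 4 annotated starts and the other chromosome 19 genes 3. Of 293 gene and peak pairs, 144 (49.1%) had the peak across an annotated start, against 42.2% at other chromosome 19 genes. The median summit position relative to the nearest start was -5 bases (upstream), against -48.5 bases at other genes. These are signed positions, with 49.1% and 42.2% of summits downstream, so they give the balance of the 2 sides and not the distance. The median fold was 4.96, within a range of 2.00 to 10.9, and that of other chromosome 19 promoter peaks was 5.23. In 10 of the 12 ZFPs with at least 5 peaks at these genes, the median fold was lower there than at other chromosome 19 promoters. In 47 pairs (16.0%) the peak also lay within 1 kb of the start of a protein-coding gene without a ZNF number, and 6 genes were marked through such peaks alone. FIZ1, DEDD2 and CCDC106 were the named partners met most, with 19, 6 and 6 pairs.

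**Figure D3:**
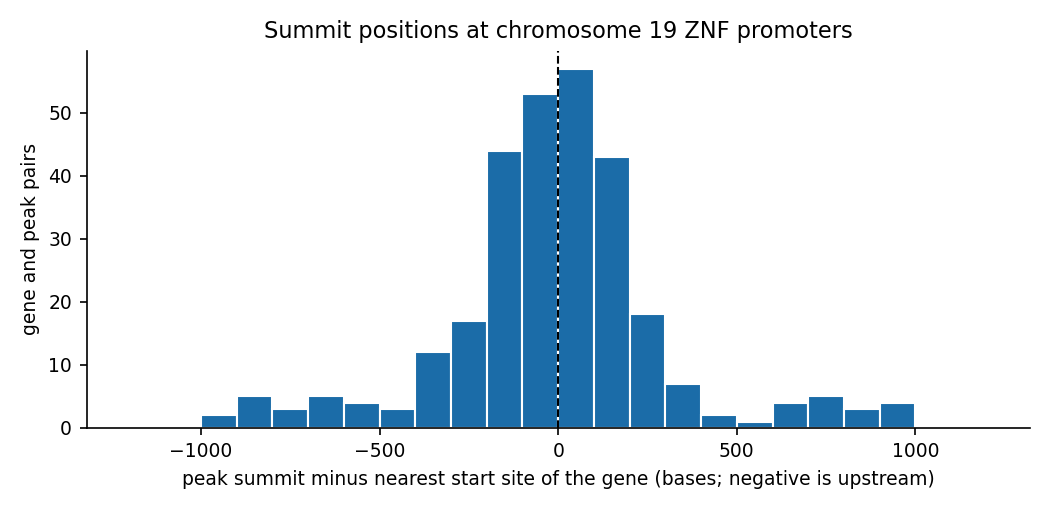
Distance from the nearest start site of the gene to the peak summit (horizontal axis, bases, negative upstream) for the 293 gene and peak pairs at chromosome 19 ZNF promoters, counted in steps of 100 bases. The counts are highest next to the start, and the median signed position is -5 bases.

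Along the chromosome the peaks were unevenly spread. With a new cluster begun wherever neighbouring members were more than 1 Mb apart, the genes fell into 15 clusters, 7 of which held at least 15 genes. The last cluster, from ZNF628 to ZNF446 (chr19:55476617-58481230), held 59 genes, of which 28 (47.5%) were marked, with 120 of the 278 calls and 8 of the 15 genes with both replicates, and 15 of 51 other genes in its span (29.4%) were marked. In the cluster from ZNF565 to ZNF573 (chr19:36182276-37817300), 18 of 26 genes (69.2%) were marked but none by both replicates of a ZFP, beside 2 of 6 other genes (33.3%). ZNF566 and ZNF607 led there, with 5 lists each. The ZNF653 to ZNF791 cluster had 9 of 26 genes marked and 40 calls, beside 4 of 13 other genes. The ZNF557 to ZNF846 cluster had 7 of 15 marked, beside 21 of 59. The ZNF575 to ZNF296 cluster had 6 of 24, with 15 of its 24 calls at ZNF428, beside 11 of 32 other genes.

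A pair of clusters were nearly free of peaks. In the cluster from ZNF101 to ZNF254 (chr19:19668796-24129968), which holds ZNF91 and ZNF93, 5 of 37 genes (13.5%) were marked, with 6 calls in all, at ZNF14, ZNF101, ZNF430, ZNF714 and ZNF254, beside 1 of 3 other genes. In the cluster from ZNF175 to ZNF331 (chr19:51571283-53580269), 4 of 40 genes (10.0%) were marked, with 5 calls, at ZNF614, ZNF432, ZNF616 and ZNF331, beside 2 of 14 other genes (14.3%). Neither cluster had a gene marked in both replicates of a ZFP. Genes with 11 or more other members within 250 kb were marked in 14 of 71 cases (19.7%, 0.282 calls a gene), against 15 of 31 (48.4%, 1.84 calls a gene) for those with 2 or fewer. These groupings were drawn with the peaks known and were not tested.

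**Figure D4:**
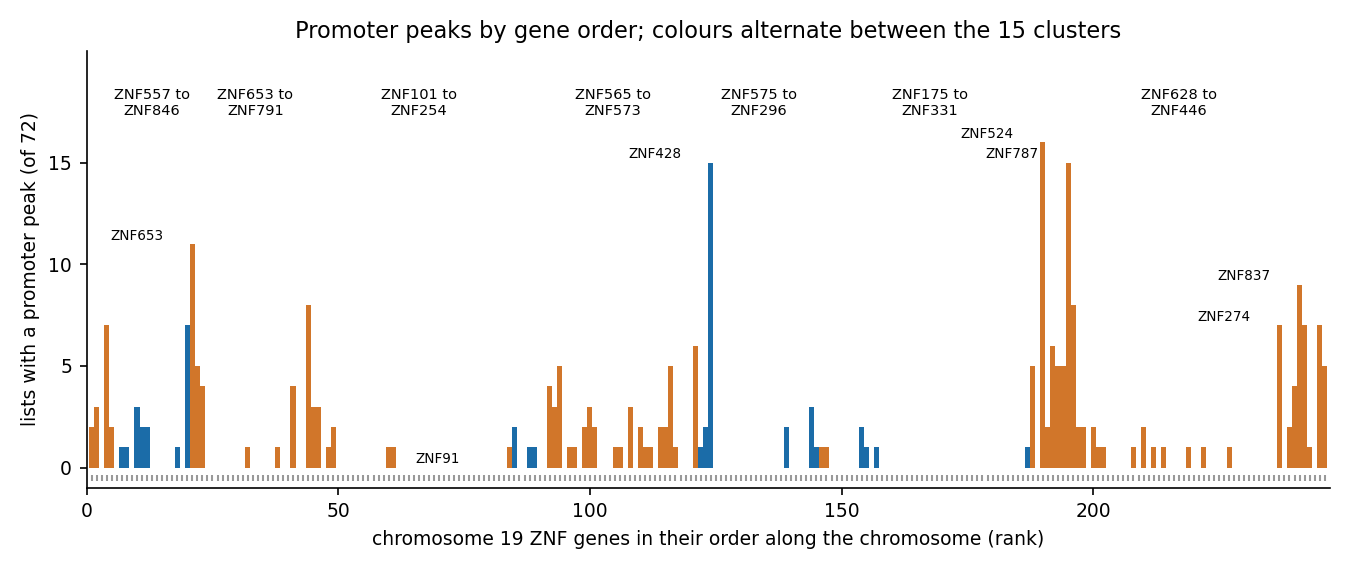
Number of lists with a promoter peak (vertical axis, of 72) for the 246 chromosome 19 ZNF genes in their order along the chromosome (horizontal axis, rank). Colours alternate between the 15 clusters, ticks under the axis mark every gene, and the 7 clusters of at least 15 genes are named by their first and last gene. The ZNF101 to ZNF254 and ZNF175 to ZNF331 clusters are almost empty, while ZNF524, ZNF787 and ZNF428 reach 15 to 16 lists.

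Other genes inside the same spans were also marked less often than genes elsewhere on the chromosome. The 7 large clusters cover 28.2% of the chromosome and held 14.6% of its 5508 peaks, or 48.6 peaks per Mb against 112 in the rest. In these spans 77 of 227 ZNF genes (33.9%) and 56 of 178 other protein-coding genes (31.5%) had a promoter peak in at least 1 list. Calls per gene were 1.11 and 1.40. Outside the spans 612 of 1048 other genes (58.4%) were marked, with 2.87 calls a gene. The other genes in the spans included 8 olfactory receptor genes, 3 VN1R and 3 PSG or CEACAM genes, none of which was marked. Other zinc-finger genes there were marked in 5 of 15 cases (33.3%) and the rest in 51 of 149 (34.2%). A list of 17 zinc-finger genes without a ZNF number that lie among the ZNF genes was counted too. Of the 16 found in the annotation under their symbol, 7 had a promoter peak, 2 of them in both replicates of a ZFP, with a median of 0 lists, beside 51.3% and 18.8% of all chromosome 19 genes. MZF1 and ZSCAN22 had 9 lists each, and PEG3, ZIM2, ZIM3 and ZIK1 had none.

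Shares were also set side by side at like CG content. RefSeq promoter sequences of 300 bases were matched for 216 of the 246 genes, 948 of the other chromosome 19 genes and 213 of the ZNF genes elsewhere. The median number of CG dinucleotides was 20, 22 and 24, and the median GC content 60%, 64.7% and 62.7%. In promoters with 20 to 29 CG dinucleotides, 37 of 90 ZNF genes (41.1%) were marked, against 181 of 237 (76.4%) other genes and 55 of 75 (73.3%) ZNF genes elsewhere. With 30 or more, the counts were 19 of 29 (65.5%), 231 of 293 (78.8%) and 52 of 66 (78.8%). With 10 to 19, they were 22 of 82 (26.8%), 96 of 183 (52.5%) and 18 of 50 (36%). In each set the share was higher in every bin with more CG dinucleotides.

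**Figure D5:**
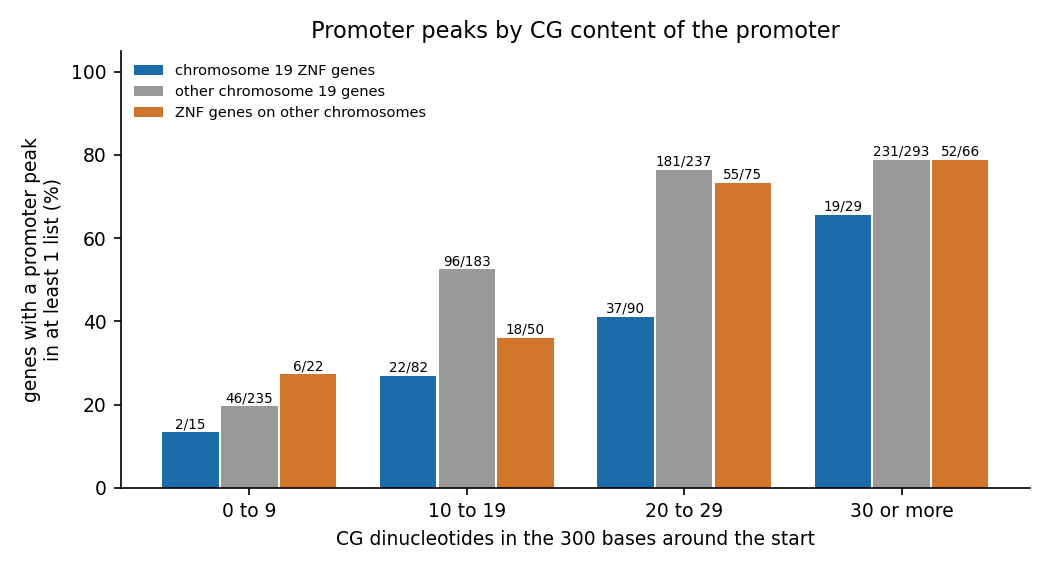
Percent of genes with a promoter peak in at least 1 list (vertical axis) by the number of CG dinucleotides in the 300 bases around the start (horizontal axis), for the 3 gene sets. Numbers over the bars are marked genes of all genes in the bin. The blue bar of the chromosome 19 ZNF genes is the lowest in every bin, from 13.3% with 0 to 9 CG dinucleotides to 65.5% with 30 or more.

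A set of 5 short letter patterns were looked for in the same 300 bases on both strands. They may overlap one another, and a match is not a binding site. The 3 gene sets held 1 promoter per gene, while the value for all promoters counted every entry. The median of all entries was 14 CG dinucleotides, against 20, 22 and 24 in the 3 sets, so they are an unlike baseline. CCGGAAG, the ETS core, was present in 99 of 216 (45.8%) of the chromosome 19 ZNF promoters, against 14.5% of other chromosome 19 promoters, 32.9% of ZNF promoters elsewhere and 10.3% of all 35116 promoters in the table. Among the ZNF promoters it was present in 55.9% of those without a peak, 26.7% of those with 1 to 4 lists and 7 of 20 (35.0%) with 5 or more. Among other chromosome 19 promoters it was present in 8.88% of those without a peak and 18.5% of those with 5 or more lists. CCAAT was present in 53.7%, against 37.8% of the other chromosome 19 promoters, 45.1% of ZNF promoters elsewhere and 34.6% of all promoters. GGGCGG, the GC box, was present in 69.0% and 68.1% of the ZNF and other chromosome 19 promoters. It was present in 60.6% of ZNF promoters elsewhere and in 45.0% of all. GCATGCGC was present in 4.17% of the ZNF promoters, 5.38% of other chromosome 19 promoters, 6.57% of ZNF promoters elsewhere and 3.05% of all. AAGATGGCG, a YY1 core, was present in 3.70%, 4.64%, 2.82% and 1.75% of the same sets.

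Exon peaks were rarer still. Of the 246 genes, 12 (4.88%) had an exon peak in at least 1 list, against 26.4% of all chromosome 19 genes. None of the 246 had one in both replicates of a ZFP, against 2.58% of all chromosome 19 genes. Averaged over ZFPs the share was 0.0960% for the chromosome 19 ZNF genes and 0.960% for other chromosome 19 genes, a difference of -0.864 percentage points (SD 1.48, n = 36 ZFPs) with an adjusted p of 1.33e-05 by the two-sided sign-flip permutation test. Against ZNF genes elsewhere (0.458%) the difference was -0.362 percentage points (SD 0.645, n = 36), with an adjusted p of 2.00e-05 by the same permutation test. In the first comparison 27 ZFPs were lower, 7 equal and 2 higher, and in the second 18 were lower, 17 equal and 1 higher. The second comparison rests on 17 exon calls at the chromosome 19 ZNF genes and 86 at those elsewhere. The second difference was no longer past the threshold with peaks found in both replicates, where the adjusted p was 0.249. The ZNF genes have more exonic sequence, with a median of 5490 exonic bases against 3191.5 in other chromosome 19 genes, and per Mb of exon the first difference was -2.38 peaks a list.

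The 17 exon peaks came from 8 ZFPs, and 15 of their summits lay in coding sequence. ZNF628 had 3, in GIN1 replicate 2 (fold 5.71), APEX2 replicate 1 (4.52) and G2E3 replicate 1 (3.52). ZNF579 had 2, in G2E3 replicate 2 (6.52) and APEX2 replicate 1 (3.97). ZNF787 had 2, in CISD1 (5.73) and G2E3 (4.89), and ZNF497 had 2, in G2E3 (4.74) and PHF7 (4.71). ZNF296, ZNF865, ZNF358 and ZNF653 had 1 each, with folds of 5.75, 5.75, 4.97 and 4.57. ZNF526, ZNF324B, ZNF534 and ZNF101 had 1 each as well. The coding bases around the highest summits of the first pair are shown because finger-coding exons are where repeated fingers differ, 50 bases either side of the summit in hg38 on the strand of the gene with CG dinucleotides in capitals.
ZNF628 (chr19:55481390-55481490, plus strand): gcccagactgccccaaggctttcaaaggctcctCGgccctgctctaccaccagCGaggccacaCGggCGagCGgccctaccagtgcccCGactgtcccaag
ZNF579 (chr19:55578720-55578820, minus strand): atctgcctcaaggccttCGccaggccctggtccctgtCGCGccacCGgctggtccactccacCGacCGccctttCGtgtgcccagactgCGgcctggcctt
The ZNF628 stretch contains codons for the conserved link that joins one C2H2 finger to the next. No exon peak at any of the 246 genes came from ZNF2, ZNF22, ZNF317, ZNF574, ZNF593, ZNF706 or ZNF800, the transfected proteins with a ZNF symbol. The transfected ORFs themselves gave strong exon peaks at their own genes, with folds of 2727 and 1271 at ZNF317 and 2205 and 2198 at ZNF574, which is why those genes were left out.

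The silencing machinery that KRAB proteins use was listed apart from the ZNF genes. Of 17 genes in the list, 14 had a promoter peak in at least 1 list, against 53% of 19925 protein-coding genes of the genome, and 3 had one in both replicates of a ZFP, against 15.5%. Those 3 were CBX1 and CBX3, which encode the HP1 proteins HP1-beta and HP1-gamma, with 14 and 10 lists, and the deacetylase gene HDAC2 with 5. TRIM28, the KRAB corepressor, itself on chromosome 19, had 3 lists, and SETDB1, the H3K9 methyltransferase, had 1. ATF7IP, DNMT3B and CHD4 had none. The list was small and was not tested.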

How the data were processed

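Cut&Run peaks of 36 V5-tagged ZFPs in HEK293T cells were used, 2 biological replicates each. The 2 V5 mock IP samples were not analysed here. The authors trimmed reads with Trimmomatic 0.36, aligned them to hg38 with Bowtie2 2.3.5.1, removed duplicates with Picard and ran MACS2 2.2.7.1 in its narrow mode on each library with the mock IP of the batch as control, per the methods and the submitters' processing notes. The deposited lists give each peak's fold (a ratio) over the mock IP at the summit. They also give −log10 p and −log10 q values and a score, all the authors' own. No deposited list held a q-value above the authors' FDR of 0.05. The methods state 1 approximate read depth aimed at for every sample. Totals per library and batches were not found in the labels or methods. The number of peaks is given instead, and it is no measure of depth.

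Peaks were assigned to GENCODE 44 genes with pandas 2.3.3 and numpy 2.4.6. The share of genes with a peak was averaged over 2 replicates, and differences between gene sets were tested over 36 ZFPs by a two-sided sign-flip permutation test (100000 resamples, smallest p 1e-05), Benjamini-Hochberg adjusted over 4 tests with a threshold of 0.05. The assignment and the test were checked on simulated data. Named genes were the 12 with the most replicated promoter peaks, the 8 with the most exon peaks, up to 3 for each transfected ZNF protein and a list of known roles. Members and lists were chosen with earlier results of these data known. Alternatives changed the start sites, the distance, the exon rule, the q-value, the replicates, read-through genes and ZFPs.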

Additional observations from a re-analysis of the deposited data

How the results depend on the processing

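The 4 differences kept their direction in all alternatives tried, and their adjusted p stayed under 0.05 by the sign-flip permutation test, except the exon difference from ZNF genes elsewhere with peaks found in both replicates (-0.0532 percentage points, adjusted p = 0.249). Leaving out each ZFP in turn, which was chosen after seeing the data, gave promoter differences from other chromosome 19 genes of -2.19 to -1.88 percentage points. Their size moved more: with peaks found in both replicates the promoter and exon differences from other chromosome 19 genes were -0.766 and -0.119 percentage points, and at a q-value of at most 0.001 they were -1.37 and -0.349. With exon peaks also kept over 1 kb from the starts of non-coding transcripts, the exon difference from other chromosome 19 genes was -0.475 percentage points. There 8 genes had an exon peak in at least 1 list, against 257 others. Counts of genes moved too. At a q-value of at most 0.001, 49 genes had a promoter peak in at least 1 list, 9 in both replicates of a ZFP and 5 an exon peak, against 480, 143 and 172 other chromosome 19 genes. With peaks found in both replicates, 13 had a promoter peak and 0 an exon peak, against 216 and 33 other chromosome 19 genes. Without replicate 1, 42 genes had a promoter peak and 7 an exon peak, against 447 and 189 others. Without replicate 2, the counts were 75 and 8, against 609 and 300 others. In all of these the sets held 246 ZNF genes and 1226 others. The other counts stayed within 1.5 times. No paired analysis was possible because no groups of samples are compared, so replicate numbers pair nothing across ZFPs; the sign-flip test takes each difference between gene sets inside a ZFP. Peak lists do not give read depth, so a gene without a peak may have had signal under the threshold.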
